A study of Mus musculus with 15 samples.

Results

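Aldehyde dehydrogenases oxidize aldehydes to carboxylic acids with NAD or NADP as the acceptor. Aldh1a1 makes retinoic acid from retinal, Aldh2 and Aldh1b1 clear acetaldehyde in mitochondria, Aldh3a2 and the Aldh3b enzymes act on long-chain and lipid-derived aldehydes, Aldh9a1 acts on aminoaldehydes and in carnitine synthesis, and Aldh1l1 takes part in folate metabolism. The liver is a main site of aldehyde clearance, and hepatocytes carry most of this enzyme family. The transcripts of 9 family genes, Aldh1a1, Aldh1a7, Aldh1b1, Aldh1l1, Aldh2, Aldh3a2, Aldh3b1, Aldh3b3 and Aldh9a1, are described here. They were picked by gene symbol from 55573 genes in a liver RNA-seq count table, with earlier results of these data known. The table holds 21 genes with an Aldh symbol, and the other 12 are given by their counts below. All 9 passed the filter on low counts.

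The livers came from 8-week old mice of the strain B6N(Cg)-Esr1tm4.2Ksk/J. The groups were WT females (FWT, n = 3), WT males (MWT, n = 3), ESR1KO females (FKO, n = 5) and ESR1KO males (MKO, n = 4). ESR1KO mice are homozygous for a deletion of exon 3 of Esr1, the estrogen receptor alpha gene, and come from matings of heterozygotes. The deletion is in every tissue, and the line is known for raised testosterone in both sexes, so loss of the receptor in the liver, its loss elsewhere and the hormone change cannot be told apart. Each mouse gave 1 library, so p-values measure the spread between these mice.

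Total counts ranged from 27799061 to 78624766 per library. Esr1 was lower in every ESR1KO liver than in every WT liver, with log2 fold changes of -2.64 in females and -1.62 in males (edgeR quasi-likelihood test, adjusted p = 4.47e-06 and 0.00445). Libraries FKO1 and FKO2 stood apart by their mitochondrially encoded share of counts, 11.2% and 7.40%, and FKO4 had 1.97%, against 4.33% to 6.10% in the remaining libraries. Hepatocyte markers were abundant in all libraries, and their summed level was 100755 to 107893 CPM (counts scaled to a common library size) in FWT and 74695 to 76972 in MWT, with Alb past the test. Most of that sum was Alb, at mean CPM of 86414 in FWT and 54550 in MWT. Only 1 of the 6, Alb, had an estimate higher in FWT, and the median log2 fold change of the 6 was -0.22. Cholangiocyte markers summed to 32.5 to 33.1 CPM in FWT, 34.1 to 55.7 in MWT, 44.0 to 51.5 in FKO and 41.5 to 59.6 in MKO, and 2 of 6, Krt19 and Epcam, were higher in MKO than in MWT. Most of these sums was Spp1, at mean CPM of 28.8 in FWT and 40.0 in MWT. Between WT sexes, Epcam passed as higher and Sox9 as lower in FWT. There, 4 of the 6 had an estimate higher in FWT, with a median log2 fold change of 0.14. Pericentral hepatocyte markers summed to 9299 to 11393 CPM in FWT and 6336 to 9990 in FKO, with 2 of 8, Lgr5 and Cyp1a2, lower in FKO. Periportal hepatocyte markers summed to 7084 to 10197 CPM in FWT and 5886 to 7840 in FKO, with 1 of 8, Hsd17b13, past the test, as higher in FKO. The median log2 fold change of FKO against FWT was -0.48 for the pericentral and -0.41 for the periportal markers. Spp1, of the cholangiocyte markers, and Alas2, of the red blood cell markers, were also higher in FKO than in FWT. Between WT sexes Alas2 and Cyp2f2, a periportal marker, passed as lower in FWT. Kupffer cell markers summed to 351 to 445 CPM in FKO and 274 to 355 in MKO. All 6 had an estimate higher in FKO than in MKO, with a median log2 fold change of 0.45, and Vsig4 passed. Against MWT, Vsig4, Epcam and Rgn, a pericentral marker, were higher in FKO, and Cyp1a2 and Cyp2f2 were lower. No marker was at 0 in all libraries of a group. The part of these marker levels in the results below was not tested, and in whole liver fewer cells of a type and less RNA per cell cannot be told apart.

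Aldh1a1 and Aldh1a7 are neighbours on chromosome 19 and face each other. In GRCm38 (GENCODE M21), Aldh1a1 lies on the plus strand at chr19:20492715-20643465 and Aldh1a7 on the minus strand at chr19:20692953-20727562. RefSeq gives Aldh1a1 an outer start, at 20492583, and an inner start, at 20601968. The stretch before the inner start of Aldh1a1 is shown beside that before the start of Aldh1a7, because both genes were higher in FKO than in FWT (below). Both are RefSeq sequences in GRCm38.p6, written 5′ to 3′ on the strand of the gene, at chr19:20601858-20601960 (plus) and chr19:20727564-20727666 (minus), with the bases that differ in capitals.
Aldh1a1: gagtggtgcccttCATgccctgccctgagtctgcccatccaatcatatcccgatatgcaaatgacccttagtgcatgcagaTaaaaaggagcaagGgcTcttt
Aldh1a7: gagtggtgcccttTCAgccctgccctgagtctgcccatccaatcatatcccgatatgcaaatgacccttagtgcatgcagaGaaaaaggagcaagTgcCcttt
These stretches were identical at 97 of 103 bases, and their extent was chosen after the longer windows were seen. Over the 250 bases before each start, Aldh1a7 was 68.8% identical after alignment to the inner start of Aldh1a1 and 55.4% identical to its outer start. The coding sequences of the pair were 91.9% identical, and 10.4% of the 50-base windows of the Aldh1a1 coding sequence occurred unchanged in Aldh1a7 transcripts. Of its 100-base windows, 0.071% did. A small part of the reads of this pair could therefore belong to either gene.

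Further start regions are shown for Aldh3b3, the member with the largest difference between the sexes, and for Aldh1b1, which differed between the sexes at a much higher level. Only bases before the first annotated exon are printed, at chr19:3958558-3958644 (plus) for Aldh3b3 and at chr4:45798772-45799021 (plus) for Aldh1b1, with CpG dinucleotides in capitals.
Aldh3b3: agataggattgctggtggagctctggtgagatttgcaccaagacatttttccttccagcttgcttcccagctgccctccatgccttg
Aldh1b1: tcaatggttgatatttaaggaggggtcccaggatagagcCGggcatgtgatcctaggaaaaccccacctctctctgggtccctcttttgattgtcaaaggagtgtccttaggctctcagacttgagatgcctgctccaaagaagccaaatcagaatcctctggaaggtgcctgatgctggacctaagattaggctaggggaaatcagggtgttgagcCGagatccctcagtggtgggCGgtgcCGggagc
In the full 250 bases before the RefSeq start, Aldh3b3 had 2 CpG, Aldh1b1 had 4 and Aldh3a2 had 18, and the median over 32851 such windows of the genome was 6. RefSeq windows matched 8 of the 9 members, with 9 windows in all, and Aldh2 had none in the table used here. A search of both strands for the estrogen response element, GGTCANNNTGACC, matched 0 of the 9 member windows and 0.0639% of all windows. The core shared by STAT5 and BCL6 sites, TTCNNNGAA, was in the Aldh9a1 window alone among the members and in 7.02% of all windows. The octamer ATGCAAAT, searched for after the aligned pair was seen, was in the windows of Aldh1a7 and of the inner start of Aldh1a1, and in 1.6% of all windows. These matches describe letters in the windows and not binding.

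Levels of different members were compared per kilobase of exon. In FWT the highest were Aldh1l1, at 350 ± 71.2 CPM per kilobase (SD, n = 3), and Aldh2, at 292 ± 9.63 CPM per kilobase, whose libraries overlapped. Aldh1a1 followed at 135 ± 34.7 CPM per kilobase, below every library of Aldh2. Aldh3a2, Aldh9a1, Aldh1a7 and Aldh1b1 had means from 78.4 down to 48.3 CPM per kilobase, where Aldh1a7 exceeded Aldh1b1 in every library and the other neighbours in that order overlapped. Aldh3b1 and Aldh3b3 were far lower, at 1.496 ± 0.0350 and 1.17 ± 0.419 CPM per kilobase, and overlapped. In MKO, Aldh1a1 stood at 266 ± 24.4 CPM per kilobase (SD, n = 4), within the spread of Aldh2 at 295 ± 31.7, and Aldh3b3 at 0.0335 ± 0.0148 was the lowest of the 9.

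**Figure D1:**
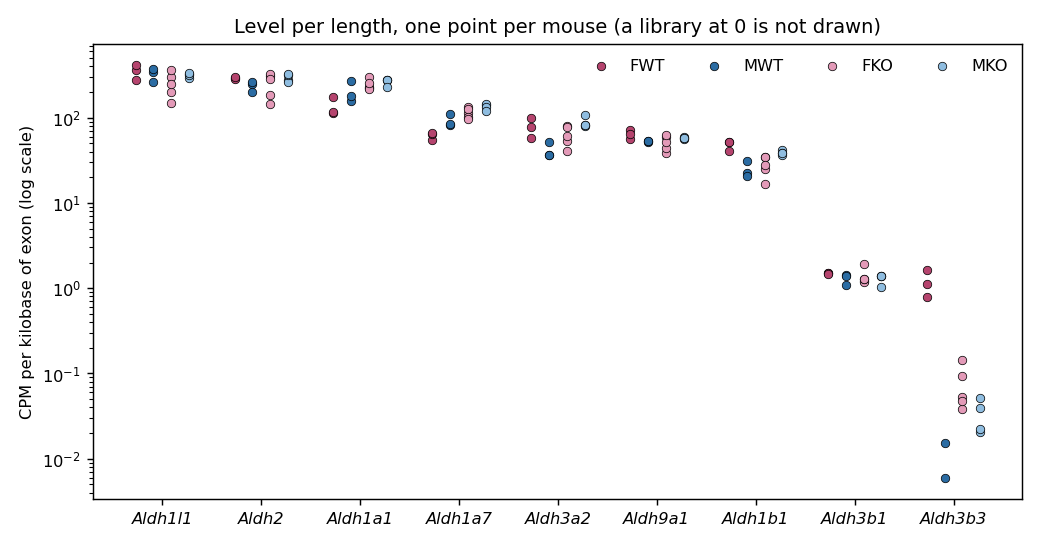
Level of each member per length in CPM per kilobase of exon, on a log axis, with 1 point per mouse and groups by colour. The 7 abundant members lie at or above 16.5 CPM per kilobase in every library, Aldh3b1 lies near 1, and Aldh3b3 falls from 0.784 to 1.62 in FWT to at most 0.143 in FKO. A library with a count of 0 is not drawn.

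Between WT sexes, 4 of the 9 members passed the test (adjusted p under 0.05 over all 17655 genes tested, no minimum fold), against 4.87% of all genes. Aldh3b3, Aldh1b1 and Aldh3a2 were higher in FWT (3 of 9, against 2.67% of all genes), and Aldh1a7 was lower in FWT (1 of 9, against 2.2%). Between ESR1KO sexes, 0 of 9 passed in edgeR, where 0.272% of all genes passed, and 0 in DESeq2, where 2.58% of all genes passed, and 3 of 9 had an unadjusted p under 0.05 in edgeR. The share of all genes with an unadjusted p under 0.05 was not counted. Counts at an unadjusted p, here and below, can therefore not be read as high or low. In females, ESR1KO against WT, 4 of 9 passed, against 5.71% of all genes, with Aldh1a1 and Aldh1a7 higher (against 3.14%) and Aldh1b1 and Aldh3b3 lower (against 2.57%). In males 1 of 9 passed, Aldh3a2 as higher, against 1.42% of all genes, and 0.833% as higher. The difference between the female and the male genotype effect (interaction) passed for 3 of 9, Aldh1b1, Aldh3a2 and Aldh3b3, each more negative in females, against 1.94% of all genes, and 0.923% in that direction. FKO were also set against MWT, where 1 of 9, Aldh3b3, passed as higher in FKO, against 2.61% of all genes, and 1.38% as higher. With a log2 fold change of at least 1.5 also required, which the study used, Aldh3b3 alone passed between WT sexes (against 1.81% of all genes), in females (1.2%), in the interaction (1.09%) and for FKO against MWT (0.816%), and 0 members passed between KO sexes (0.142%) or in males (0.578%). These comparisons share groups of mice, so their calls are not independent. The median log2 fold change of the 9 was 0.28 between WT sexes, -0.32 in females and 0.41 in males, and the median of all genes was 0.014, -0.0013 and -0.0011.

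**Figure D2:**
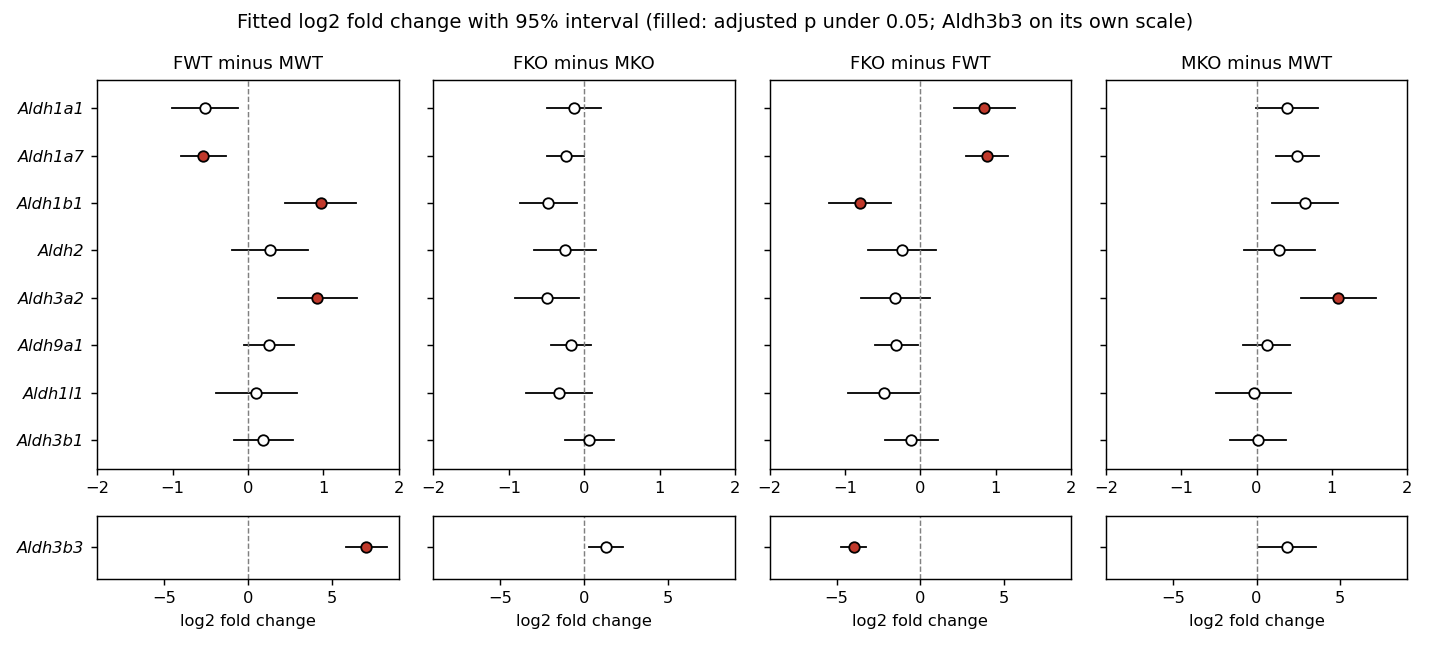
Fitted log2 fold change of each member, with its 95% confidence interval, in 4 comparisons of groups. Filled points have an adjusted p under 0.05, and Aldh3b3 has its own scale below. There are 4 filled points for FWT minus MWT, none for FKO minus MKO, 4 for FKO minus FWT and 1, Aldh3a2, for MKO minus MWT.

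Aldh1a1, a cytosolic retinal dehydrogenase, had 557, 578 and 864 CPM in FWT and 1322, 766 and 888 CPM in MWT. In FKO it had 1101, 1463, 1116, 1062 and 1256 CPM, and in MKO 1378, 1372, 1377 and 1134 CPM. Every FKO liver was above every FWT liver, whereas the WT sexes overlapped, as did the KO sexes. The log2 fold change in females was 0.85 ± 0.19 (SE), 1.80-fold, with an adjusted p of 0.0160 in edgeR and an exact permutation p of 0.0357, the smallest that 5 mice against 3 allow. In males it was 0.41 ± 0.19 (adjusted p = 0.431), and the effects of the 2 sexes differed by 0.44 ± 0.27 (adjusted p = 0.459), so a difference between the sexes in this effect was not shown. Leaving out FWT1 or FWT2 ended the female call, with an adjusted p of up to 0.0926.

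Aldh1a7, the neighbouring copy, which is a rodent gene for an enzyme closely related to Aldh1a1, had 114, 132 and 135 CPM in FWT and 227, 171 and 176 CPM in MWT. It had 231, 274, 259, 209 and 201 CPM in FKO and 287, 297, 277 and 250 CPM in MKO. All FWT livers were below all others, and all MKO livers were above all MWT livers. FWT were lower than MWT by a log2 fold change of -0.59 ± 0.14 (SE; adjusted p = 0.0209, edgeR), a call lost without FWT1, FWT2, FWT3 or MWT1, with an adjusted p of up to 0.140. The log2 fold change of FKO against FWT was 0.89 ± 0.13, 1.85-fold (adjusted p = 0.000558), and it passed with each of the 15 libraries left out in turn. In males it was 0.54 ± 0.13 (adjusted p = 0.0584, edgeR), which did not pass, whereas the DESeq2 Wald test gave 0.00748, and it passed in edgeR without MWT1, FKO1 or FKO5 (adjusted p down to 0.0409). The effects of the sexes differed by 0.35 ± 0.18 (adjusted p = 0.397).

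Among the genes between this pair and around it, C730002L08Rik, a noncoding transcript on the strand opposite to Aldh1a1 that overlaps its outer part, was 1.15 ± 0.320 CPM in FWT and 2.90 ± 0.487 CPM in FKO (SD). Its log2 fold change was 1.32 ± 0.30 (SE; adjusted p = 0.0162, edgeR). Whether the counting used strand is not given in the sources used here, so reads of this transcript and of Aldh1a1 cannot be told apart where they overlap.

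**Figure D3:**
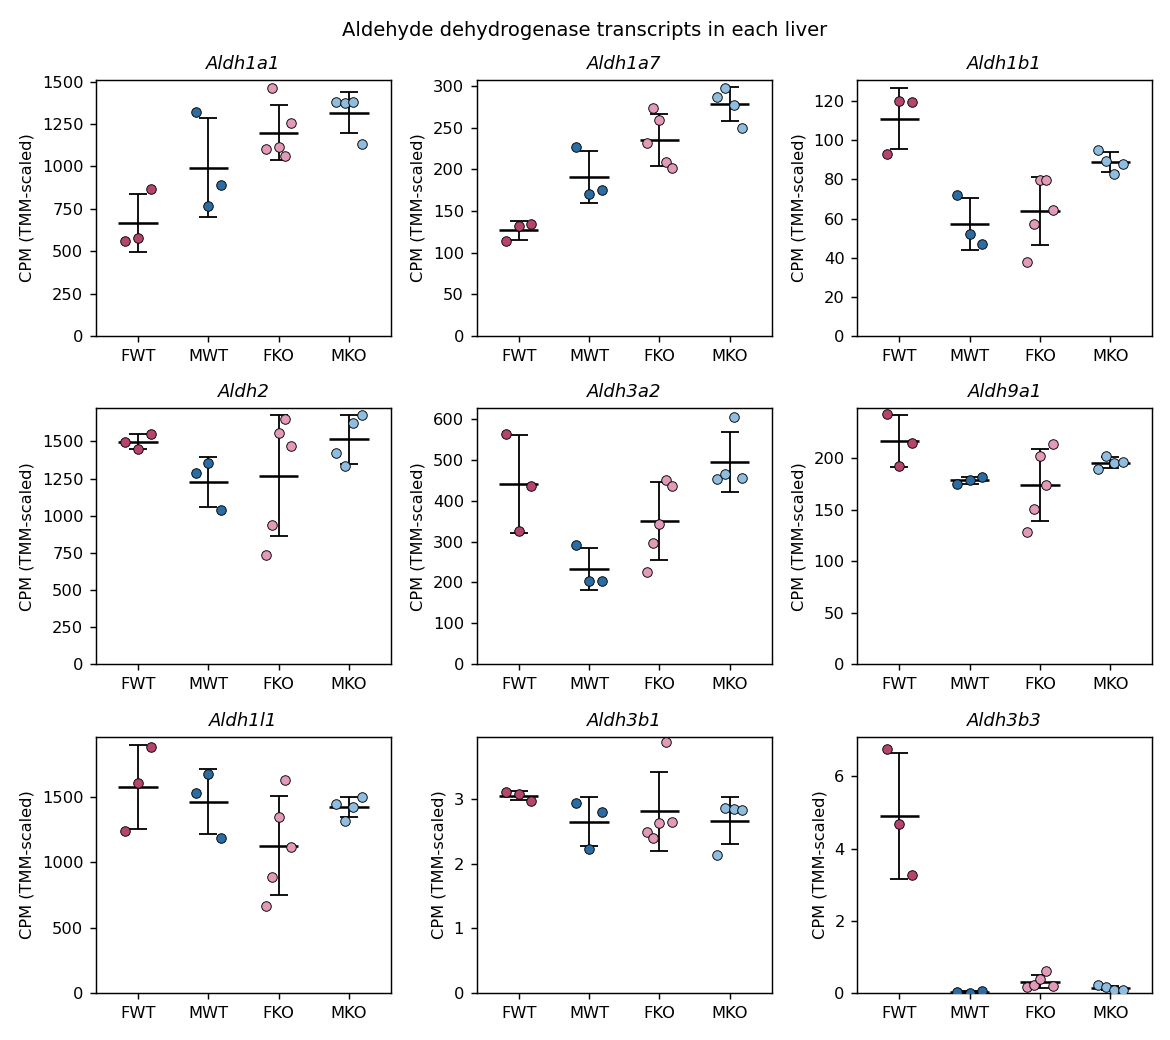
CPM of the 9 members in each liver, on linear axes from 0, with 1 point per mouse, the group mean as a line and the SD as bars. By group mean, Aldh1a1 and Aldh1a7 are lowest in FWT, Aldh1b1 is highest in FWT and Aldh3a2 is lowest in MWT. In single livers Aldh3b3 lies between 3.28 and 6.76 CPM in FWT and at most at 0.599 CPM in the other groups.

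Aldh1b1 (chr4:45799022-45804604, plus strand), a mitochondrial enzyme that oxidizes acetaldehyde, had 93.2, 120 and 120 CPM in FWT and 72.0, 52.0 and 46.9 CPM in MWT. It had 38.0, 57.4, 79.6, 79.8 and 64.3 CPM in FKO and 95.1, 89.5, 82.8 and 88.0 CPM in MKO. FWT did not overlap with MWT or FKO, and the order of the sexes was the opposite in the KO livers, where all FKO were below all MKO. FWT exceeded MWT by a log2 fold change of 0.96 ± 0.22 (SE; adjusted p = 0.0156, edgeR), a call lost without FWT2, FWT3, MWT2 or MWT3 (adjusted p of up to 0.0748). In females the genotype effect was -0.80 ± 0.19 (adjusted p = 0.0241, exact permutation p = 0.0357, the smallest possible), and the call was lost without FWT2, FWT3 or FKO2 (up to 0.113) and in a fit of these 2 groups alone (0.0913). In males the effect was 0.64 ± 0.21 (adjusted p = 0.171), which passed without FKO1 (0.0410).

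The effects on Aldh1b1 in females and males differed by -1.44 ± 0.28 on the log2 scale (SE; adjusted p = 0.0107, edgeR), and this call was kept with each of the 15 libraries left out in turn. FKO1, the library with the highest mitochondrial share, had the lowest level of all. Without FKO1 and FKO2 the interaction was -1.21 (adjusted p = 0.00555) and the effect in females -0.58 (adjusted p = 0.0429). FKO against MKO was -0.48 ± 0.18 (adjusted p = 0.204), with an unadjusted exact permutation p of 0.0159, the smallest that 5 mice against 4 allow.

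Aldh2 (chr5:121566027-121593824, minus strand), the main mitochondrial enzyme of acetaldehyde clearance, had 1496, 1449 and 1548 CPM in FWT and 1286, 1356 and 1036 CPM in MWT. It had 737, 938, 1557, 1647 and 1466 CPM in FKO and 1420, 1333, 1621 and 1676 CPM in MKO. All FWT were above all MWT. FKO1 and FKO2 were the lowest of the 15 livers, and the other FKO lay in the range of FWT and MKO. It did not pass in any comparison. The log2 fold change was 0.29 (95% confidence interval -0.22 to 0.79) between WT sexes, -0.24 (-0.69 to 0.21) in females and 0.30 (-0.17 to 0.78) in males.

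Aldh3a2 (chr11:61223417-61267464, minus strand), the fatty aldehyde dehydrogenase of the endoplasmic reticulum, had 562, 325 and 435 CPM in FWT and 292, 203 and 204 CPM in MWT. It had 226, 297, 342, 450 and 436 CPM in FKO and 452, 465, 604 and 455 CPM in MKO. MWT were below all FWT and all MKO, whereas FKO overlapped with both WT groups. FWT exceeded MWT by a log2 fold change of 0.92 ± 0.25 (SE; adjusted p = 0.0408, edgeR), and leaving out FWT1, FWT3, MWT2, MWT3, FKO3, MKO1, MKO2 or MKO4 ended the call (adjusted p of up to 0.182). MKO exceeded MWT by 1.09 ± 0.24, 2.12-fold (adjusted p = 0.0286), with an exact permutation p of 0.0571, the smallest that 4 mice against 3 allow. That call was lost without MWT2, MWT3, MKO1 or MKO3 (up to 0.162).

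In females the effect on Aldh3a2 was -0.33 ± 0.22 (SE; adjusted p = 0.387, edgeR). The effects of the sexes differed by -1.42 ± 0.32 (adjusted p = 0.0272), a call lost without FWT1, FWT3, MWT2, MWT3, MKO1 or MKO3 (up to 0.0947). Every FKO liver was below every MKO liver, and the fitted log2 fold change there was -0.50 ± 0.20 (adjusted p = 0.226, unadjusted exact permutation p = 0.0159).

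Aldh3b3 (chr19:3958645-3972103, plus strand) belongs to the lipid aldehyde dehydrogenases of subfamily 3B and showed the largest fold changes of the 9, at a low level. FWT had 6.76, 4.68 and 3.28 CPM and MWT had 0.025, 0 and 0.063 CPM, from counts of 393, 203 and 143 against 1, 0 and 4. FKO had 0.159, 0.221, 0.391, 0.599 and 0.196 CPM, and MKO had 0.217, 0.163, 0.087 and 0.093 CPM. FWT stood above all other livers, FKO and MKO stood above all MWT, and the KO sexes overlapped. The fitted log2 fold change between WT sexes was 7.07 ± 0.58 (SE; adjusted p = 4.96e-07, edgeR). From the summed counts, 739 in FWT and 5 in MWT, the ratio per total count was 152 with a 95% exact binomial interval of 64.7 to 469, which covers counting error only.

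In females Aldh3b3 was lower in ESR1KO by a log2 fold change of -3.97 ± 0.35 (SE; adjusted p = 2.64e-06, edgeR). The summed counts were 739 in FWT and 72 in FKO, a ratio of 16.7 (13.1 to 21.6). In males, with 25 counts in MKO and 5 in MWT, the fitted value was 1.81 ± 0.82 (adjusted p = 0.391). The interaction was -5.78 ± 0.86 (adjusted p = 0.000893), and it and the calls between WT sexes and in females passed with each of the 15 libraries left out in turn. FKO were above MWT by 3.10 ± 0.69 (adjusted p = 0.0235, exact permutation p = 0.0357), a call lost without MWT1, MWT2 or MWT3 (up to 0.104), and in a fit of these 2 groups alone the gene failed the low-count filter.

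Aldh3b3 sits between its relatives Aldh3b1 and Aldh3b2. Aldh3b2, which starts directly downstream, failed the low-count filter, with counts of 5, 12 and 6 in FWT, 0 in every MWT, 1, 1, 3, 0 and 0 in FKO and 0, 1, 0 and 1 in MKO. Taking 3 counts over the group as the limit for MWT, it was at least 7.87-fold higher in FWT per total count. The coding sequences of Aldh3b2 and Aldh3b3 were 90.3% identical. Of the windows of Aldh3b2, 35.3% of those of 50 bases and 21.3% of those of 100 bases were found unchanged in Aldh3b3. The counts of this pair are therefore uncertain as to which copy they came from.

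Aldh3b1 (chr19:3913491-3929808, minus strand), which oxidizes medium- and long-chain aldehydes, had 3.11, 3.09 and 2.98 CPM in FWT and 2.94, 2.22 and 2.81 CPM in MWT. It had 2.50, 2.40, 2.63, 3.89 and 2.66 CPM in FKO and 2.13, 2.87, 2.86 and 2.83 CPM in MKO. FWT lay just above MWT and above all MKO, and FKO spanned both WT groups. No comparison passed, and the log2 fold change was 0.20 (95% confidence interval -0.19 to 0.60) between WT sexes, -0.12 (-0.47 to 0.23) in females and 0.02 (-0.35 to 0.39) in males. Unc93b1, which lies between Aldh3b1 and Aldh3b3 and encodes a trafficking protein of nucleic acid-sensing Toll-like receptors, passed in no comparison. Farther downstream, Acy3, an aminoacylase gene, was lower in FKO than in FWT by -0.71 ± 0.14 (SE; adjusted p = 0.00765, edgeR). Gstp1, a glutathione S-transferase gene in the same interval, was lower in FWT than in MWT by -3.88 ± 0.22 (adjusted p = 3.80e-09), the direction opposite to Aldh3b3.

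Aldh9a1 (chr1:167349991-167368532, plus strand), which oxidizes aminoaldehydes including the carnitine precursor trimethylaminobutyraldehyde, had 243, 192 and 214 CPM in FWT and 175, 179 and 181 CPM in MWT. It had 129, 150, 202, 174 and 213 CPM in FKO and 189, 202, 195 and 196 CPM in MKO. FWT and MKO lay above MWT, and FKO1 and FKO2 were the lowest livers. No comparison passed, with a log2 fold change of 0.28 (95% confidence interval -0.05 to 0.61) between WT sexes, -0.32 (-0.61 to -0.03) in females and 0.13 (-0.17 to 0.44) in males.

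Aldh1l1 (chr6:90486427-90600203, plus strand), the cytosolic formyltetrahydrofolate dehydrogenase, had 1245, 1613 and 1886 CPM in FWT and 1533, 1675 and 1190 CPM in MWT. It had 667, 890, 1345, 1631 and 1115 CPM in FKO and 1451, 1321, 1426 and 1503 CPM in MKO. All pairs of groups overlapped, and FKO1 and FKO2 were again lowest. No comparison passed, with a log2 fold change of 0.11 (95% confidence interval -0.43 to 0.64) between WT sexes, -0.49 (-0.96 to -0.01) in females and -0.04 (-0.54 to 0.46) in males.

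For Aldh2, Aldh1l1 and Aldh9a1 the low FKO values were those of the libraries with the highest mitochondrially encoded share. Without FKO1 and FKO2 the log2 fold change in females was 0.05 for Aldh2, -0.21 for Aldh1l1 and -0.14 for Aldh9a1, with adjusted p of 0.832, 0.512 and 0.424. This was not particular to these members. FKO1 and FKO2 were also the lowest livers for Aldh4a1, Aldh5a1, Aldh7a1, Aldh8a1 and Aldh16a1. They were not for Aldh6a1, Aldh18a1, Aldh1a2, Aldh1a3 or Aldh1l2. Among FKO they were lowest for Aldh1b1 and Aldh3a2, whereas FKO2 was the highest FKO liver for Aldh1a1 and Aldh1a7. The part of the mitochondrial share in these levels was not tested further. For the female calls of Aldh1a1 and Aldh1a7 the values without these 2 libraries were 0.78 and 0.81, with adjusted p of 0.0413 and 0.00260, and for Aldh3a2 the value was -0.11 (adjusted p = 0.804).

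**Figure D4:**
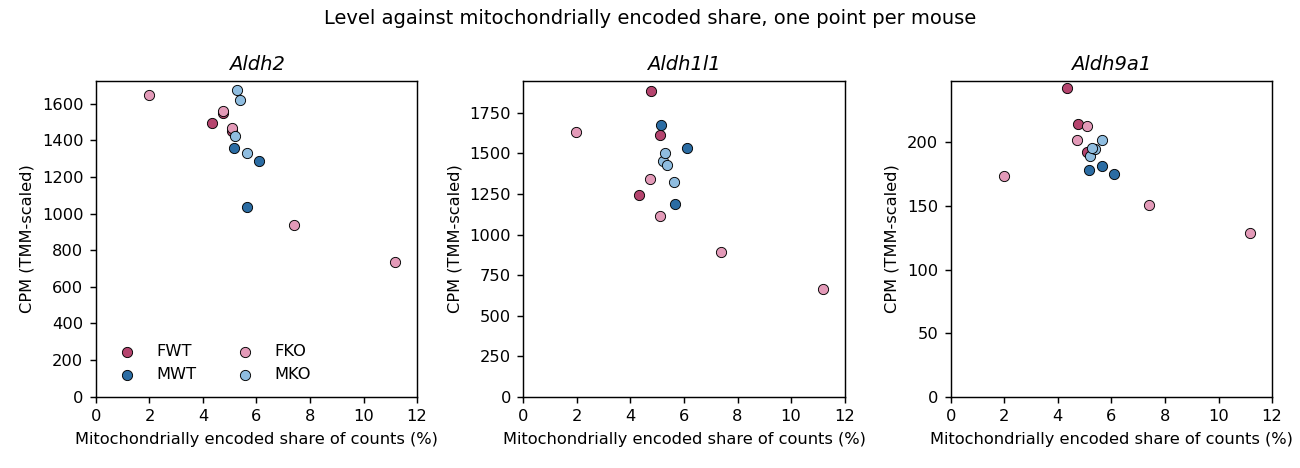
CPM of Aldh2, Aldh1l1 and Aldh9a1 against the share of counts from mitochondrially encoded genes in percent, with 1 point per mouse and groups by colour. FKO1 and FKO2, at 11.2% and 7.40%, have the lowest CPM of all 15 livers for each gene.

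Of the 12 other genes with an Aldh symbol, 10 passed the low-count filter and 0 passed the test in any of the 6 comparisons, in edgeR or in DESeq2, with an unadjusted p under 0.05 in 7 of 60 edgeR tests. The share of all genes past the test was 0.272% to 5.71% in edgeR and 2.58% to 8.7% in DESeq2. Aldh6a1, Aldh7a1 and Aldh8a1, enzymes of valine, lysine and kynurenine breakdown, were named after their values were seen, as the most abundant of them, with FWT means from 75.9 to 85.5 CPM per kilobase, in the range of Aldh3a2.

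In the retinoid pathway, which supplies the substrate of Aldh1a1, 19 of 22 genes were tested. Between WT sexes 4 were higher in FWT, namely Rarb, a retinoic acid receptor, and Rdh9, Rdh16 and Rdh16f2, which encode retinol dehydrogenases. In females 3 were lower in ESR1KO, Bco1, the beta-carotene oxygenase, at a log2 fold change of -0.87, Rdh9 at -1.12 and Rdh16f2 at -1.24. In males Rdh16 alone passed, higher in MKO at 1.55 ± 0.19 (SE; adjusted p = 0.000441, edgeR). The interaction was negative for Rdh16 and Rdh16f2, as it was for Aldh1b1 and Aldh3a2, and both were higher in FKO than in MWT. Of all genes, 4.87% passed between WT sexes, 5.71% in females, 1.42% in males, 1.94% in the interaction and 2.61% for FKO against MWT.

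Among 17 genes of alcohol and aldehyde oxidation and reduction, all tested, 5 passed between WT sexes. Maob, a monoamine oxidase, Cbr1, a carbonyl reductase, and Akr1b7, an aldo-keto reductase, were higher in FWT, and the aldehyde oxidases Aox1 and Aox3 were higher in MWT. In females 5 passed, with Adh4, Aox1 and Aox3 higher and Maob and Akr1b7 lower in ESR1KO. Aox1 and Aox3 changed by 1.07 ± 0.21 and 1.25 ± 0.20 (SE; adjusted p = 0.00714 and 0.00154, edgeR), the direction of Aldh1a1 and Aldh1a7, and Akr1b7 by -2.19 ± 0.21 (adjusted p = 7.05e-06), the direction of Aldh3b3. In males Maob and Cbr1 passed as higher in MKO. The interaction passed for 4, negative for Maob, Cbr1 and Akr1b7 and positive for Aox3 at 1.96 ± 0.29 (adjusted p = 0.000669). Against MWT, 5 passed in FKO, with Maob, Cbr1 and Akr1b7 higher, Aox3 lower, and Maoa, the other monoamine oxidase, higher at 0.74 ± 0.15 (adjusted p = 0.0147). The shares of all genes were 4.87% between WT sexes, 5.71% in females, 1.42% in males, 1.94% in the interaction and 2.61% against MWT.

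In folate metabolism, the pathway of Aldh1l1, 16 of 17 genes were tested. Mthfd2, a mitochondrial folate enzyme, was lower in FWT than in MWT by -1.79 ± 0.29 (SE; adjusted p = 0.000736, edgeR) and higher in FKO than in FWT by 0.96 ± 0.27 (adjusted p = 0.0449), and Shmt1, a serine hydroxymethyltransferase, was lower in FKO by -0.50 ± 0.14 (adjusted p = 0.0442). The interaction passed for Mthfd2 alone, at 1.78 ± 0.36 (adjusted p = 0.0144). In males 0 of 16 passed in edgeR, 3 had an unadjusted p under 0.05, and 1, Mthfd1l, passed in DESeq2. Of the sources of fatty aldehydes, the substrates of Aldh3a2 and Aldh3b3, 0 of 8 tested passed in any comparison in edgeR, whereas 9 of 48 tests had an unadjusted p under 0.05 and 4 passed in DESeq2. Of 4 genes of carnitine synthesis Shmt1 alone passed in edgeR, in females. The edgeR shares of all genes were 4.87% between WT sexes, 5.71% in females, 1.42% in males and 1.94% in the interaction. In DESeq2 the share of all genes was 2.83% in males and ranged from 2.58% to 8.7% over all comparisons.

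For the members with an interaction past the test, the genes with the most similar pattern over the 15 livers were found by the root mean square difference of centred log2 CPM. For Aldh1b1 these were Dhrs7, a short-chain dehydrogenase gene, at 0.197, Ces1g, a carboxylesterase gene, at 0.229 and Shmt1 at 0.233. For Aldh3a2 they were Pctp, a phosphatidylcholine transfer protein gene, at 0.161, Ehhadh, a peroxisomal beta-oxidation enzyme gene, at 0.213 and Vnn3, a pantetheinase gene, at 0.231. For Aldh3b3 the distances were larger, 0.686 for Gm6135, 0.818 for 9030619P08Rik and 0.876 for Sybu. Gm6135 had mean CPM of 16.03 in FWT, 0.265 in MWT, 1.22 in FKO and 0.380 in MKO. These distances are descriptions with no test.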

How the data were processed

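RNA was extracted from the livers of 15 mice, depleted of ribosomal RNA and sequenced as paired ends on an Illumina NovaSeq6000, with a top-up run for samples with few reads; which samples is not given in the sources used here. Per the submitters' processing notes and the study's methods, the authors trimmed reads with Trimmomatic 0.36, used STAR with GRCm38 as the reference, ran HTSeq for gene-level counting and deposited raw counts with no normalization. Multimapped reads could lower the counts of near-identical copies, and their handling is not given. Groups were taken from the sample labels. The 9 members and the gene lists were chosen with earlier results of these data known.

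From the counts, genes were kept by filterByExpr (17655), libraries scaled by TMM (factors 0.957 to 1.03) and a group-mean model fitted to all 15 libraries with edgeR 4.0.16 in R 4.3.3 (quasi-likelihood F test, Benjamini-Hochberg over 17655 genes). DESeq2 1.42.0 was an alternative. The fit was tested on simulated data for FKO against FWT only, with changes set in genes more abundant than Aldh3b3. This covered neither the interaction nor changes at the level of Aldh3b3. The study's minimum log2 fold change of 1.5, given for its earlier RNA-seq, was used as an alternative. CPM used the TMM factors, and exact permutation tests were 2-sided, on log2 CPM with a prior count of 2. Replicates differed by far more than counting error. Intervals and limits of 3 counts cover counting error only. Named were all members, the other Aldh genes and pathway genes past the test, the 3 most similar genes of each member with an interaction, genes within 100 kb of the Aldh1a and Aldh3b pairs, and Esr1.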

Additional observations from a re-analysis of the deposited data

Results flagged for a closer look

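The effect of ESR1KO differed between females and males by a test of the difference itself for 3 members, with interactions of -1.42 for Aldh3a2, -1.44 for Aldh1b1 and -5.78 for Aldh3b3 on the log2 scale (adjusted p = 0.0272, 0.0107 and 0.000893, edgeR). For Aldh3b3 and Aldh1b1 each call was kept with any 1 of the 15 libraries left out, and for Aldh3a2 it was lost without FWT1, FWT3, MWT2, MWT3, MKO1 or MKO3, with an adjusted p of up to 0.0947.

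Within the KO groups, 4 values, each of 1 gene in 1 liver, stood far from the others of their group. This was measured by the gap to the nearest value over the whole range of CPM. MKO4 was lowest for Aldh1a1 (0.972), MKO3 highest for Aldh3a2 (0.917), MKO1 lowest for Aldh3b1 (0.951) and FKO4 highest for Aldh3b1 (0.827). Of 18 groups of member values examined, 4 exceeded the critical value. A rate of about 1 in 20 groups by chance holds for independent groups of normally distributed values. These groups share the same KO mice, so 4 of 18 cannot be read as an excess over that rate. FKO4 also had the lowest mitochondrially encoded share of counts, 1.97%, and MKO1 the lowest total count, 27799061. Their part in these values was not tested.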

How the results depend on the processing

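Requiring a log2 fold change of 1.5 left 1 member past the test between WT sexes, in females and in the interaction, which was Aldh3b3, and 0 in males. In males the DESeq2 Wald test gave 2 members past the test (Aldh1a7 added), a fit of MKO and MWT alone gave 3 (Aldh1a7 and Aldh1b1 added), and leaving out FKO1 and FKO2, chosen after their mitochondrial share was seen, gave the same 3 members. The share of all genes past the test in males also rose, from 1.42% to 2.83%, 2.51% and 2.73% in these fits. For FKO against MWT a fit of these 2 groups alone gave 0, since Aldh3b3 failed its filter there, as it did for the KO sexes and for males. With each library left out in turn, the counts ranged from 1 to 4 between WT sexes, 2 to 4 in females, 0 to 3 in males, 2 to 3 in the interaction and 0 to 1 for FKO against MWT, and were 0 between KO sexes. In the same fits the share of all genes past the test ranged from 3.0% to 6.25% between WT sexes, 2.29% to 8.74% in females, 0.556% to 1.89% in males, 1.35% to 2.23% in the interaction, 1.19% to 4.10% for FKO against MWT and 0.148% to 0.620% between KO sexes. Where leaving out 1 library ended a call, fewer mice were in the fit. DESeq2 size factors, total counts, no filter and a filter of 1 CPM in 3 libraries left every such count within 1.5 times. Exact permutation p-values were under 0.05 in 7 of 45 tests with a prior count of 2 and in 7 with 0.5. The smallest possible value was 0.1 between WT sexes and 0.0571 in males, so no test there could go under 0.05. The share of all genes under 0.05 in this test was not counted.

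With the replicate number as a block, 0 members passed in males, where Aldh3a2 was lost, against 0.935% of all genes. For FKO against MWT 0 members passed, against 3.17% of all genes, and between WT sexes 3 passed, against 4.51%. In the main fit these shares of all genes were 1.42%, 2.61% and 4.87%. Deviations of same-numbered samples from their group means had correlations of -0.195 to 0.140 over 19 pairs, 1 of them over 0.1. For samples with different numbers they were -0.166 to 0.219 over 64 pairs, 12 of them over 0.1. The labels state no pairing by number, and this check of whole libraries cannot exclude a shared litter or batch. Under the block Aldh2 turned to -0.18 and Aldh3b1 to -0.0085 for FKO against MWT, and Aldh3b1 to -0.081 in males.

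Other reversals were of small values that were past the test in no setting, and their cause was not tested. Without FKO1 and FKO2, Aldh2 turned to 0.042 and Aldh9a1 to 0.0050 between KO sexes, Aldh2 to 0.054 in females and Aldh9a1 to 0.14 for FKO against MWT. In males Aldh3b1 turned to -0.0074 with total counts and -0.012 with no filter. Leaving out 1 library moved the log2 fold change from -0.037 to 0.26 for Aldh1l1 between WT sexes, from -0.17 to 0.066 for Aldh1l1 and from -0.094 to 0.096 for Aldh3b1 in males, and from -0.077 to 0.12 for Aldh3b1 between KO sexes. For FKO against MWT the ranges were -0.062 to 0.19 for Aldh2, -0.061 to 0.16 for Aldh3b1 and -0.12 to 0.052 for Aldh9a1. Depth limits Aldh3b3 and Aldh3b2 in males, with 5 and 0 counts in all of MWT and 25 and 2 in all of MKO.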
